A study of Homo sapiens with 2 samples.

Results

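The HOX cluster genes were examined in derivatives of the H1 line after 4 days of culture toward blood, with 1 library from wild-type (WT) and 1 from MEIS2-/- cells. H1 is itself an established human embryonic stem cell line. Members were all protein-coding genes of the HOXA, HOXB, HOXC and HOXD clusters, taken by symbol alone, so that no single value decided which gene of a cluster was included. The rule gives 39 genes, of which 33 were listed among the 17397 genes of both expression tables. HOXA5, HOXA6, HOXC11, HOXC12, HOXD3 and HOXD8 were not analysed here. Both cultures had received 50 ng/ml activin A with 40 ng/ml BMP4 for 2 days, then 40 ng/ml VEGF with 50 ng/ml bFGF for 2 days. The deletion was made with a lentiviral Cas9 and guide vector, puromycin selection and colonies grown from single cells, so the MEIS2-/- cells stand for a clone, and the clone sequenced is not named. Expression was deposited as FPKM, a fragment count corrected for transcript length and for the number of mapped fragments. With 1 library per genotype no difference here has a replicate check, no error can be attached to a value, and no p-value is given.

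HOX genes encode homeodomain transcription factors that give cells their position along the body axis. Genes of each cluster lie in the order in which they are switched on, from paralogue 1, expressed early and in anterior regions, to paralogue 13, expressed late and in posterior regions. HOX proteins bind DNA together with PBX proteins and with MEIS or PKNOX proteins, so MEIS2 is a HOX partner. In blood formation several HOXA and HOXB genes act in progenitor growth, and HOXA9 and MEIS1 are well known as partners in leukemia.

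MEIS2 itself was at 10.85 FPKM in WT and 3.44 FPKM in MEIS2-/- cells, with a log2 fold change of −1.63. An edit of the coding sequence need not remove the mRNA, so this level alone does not check the label. Log2 fold changes are MEIS2-/- over WT on values raised by a pseudocount of 0.1 FPKM, so those of low genes are understated, and only genes past 2-fold are said to have risen or fallen. A gene was compared if either library had 1 FPKM or more of it, which left 13075 genes. The FPKM values of all genes summed to 447542 in WT and 440651 in MEIS2-/- cells. The median log2 fold change of the compared genes was 0.12, so a value of 0 lies slightly below that of a typical gene. The cultures also differed in cell type markers. All 8 lateral mesoderm and hemogenic endothelium markers were lower in MEIS2-/- cells, 4 of them by at least 2-fold. Of all compared genes, 40.6% were lower and 7.97% fell by at least 2-fold. Among the 8, PECAM1 (1.53 and 0.93 FPKM) reached 1 FPKM in WT cells only, so the filter had fixed its direction. The summed level of the 8 was 1080 FPKM in WT and 502 FPKM in MEIS2-/- cells. The 3 pluripotency markers summed to 303 and 1525 FPKM, with SOX2 at 0.09 and 0.15 FPKM, and the 5 endoderm markers to 586 and 1202 FPKM. APOA1 gave most of the endoderm sum, at 401.4 and 879.1 FPKM, while FOXA2 was at 43.06 and 49.12 FPKM. The 2 primitive streak markers summed to 4.77 and 17.2 FPKM, and of the neuroectoderm markers OTX2 was at 11.38 and 3.30 FPKM and PAX6 at 0.04 and 0.09 FPKM. Of 5 blood markers, SPI1, GATA1, RUNX1 and PTPRC were under 1 FPKM in both libraries and SPN was at 1.84 and 1.16 FPKM. SOX1, also a neuroectoderm marker, was not analysed here, and none of the markers analysed was at 0. The part of these markers in the HOX values was not tested, and in bulk RNA fewer cells of a type cannot be told apart from less RNA per cell.

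Nearly all of the summed FPKM of the listed HOX genes came from the HOXB cluster. The 10 HOXB genes summed to 201.1 FPKM in WT and 129.9 FPKM in MEIS2-/- cells, which was 97.4% and 96.3% of the sum over the 33 HOX genes. HOXB1 to HOXB9 each reached 1 FPKM in WT cells. Of the 23 HOXA, HOXC and HOXD genes, HOXA13 alone did so, and the highest value among them was 1.11 FPKM in WT and 0.75 FPKM in MEIS2-/- cells. The comparison was therefore possible for 10 HOX genes, 9 of them HOXB genes. The other 23 listed HOX genes were under 1 FPKM in both libraries, 69.7% of those listed against 24.8% of all genes.

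**Figure D1:**
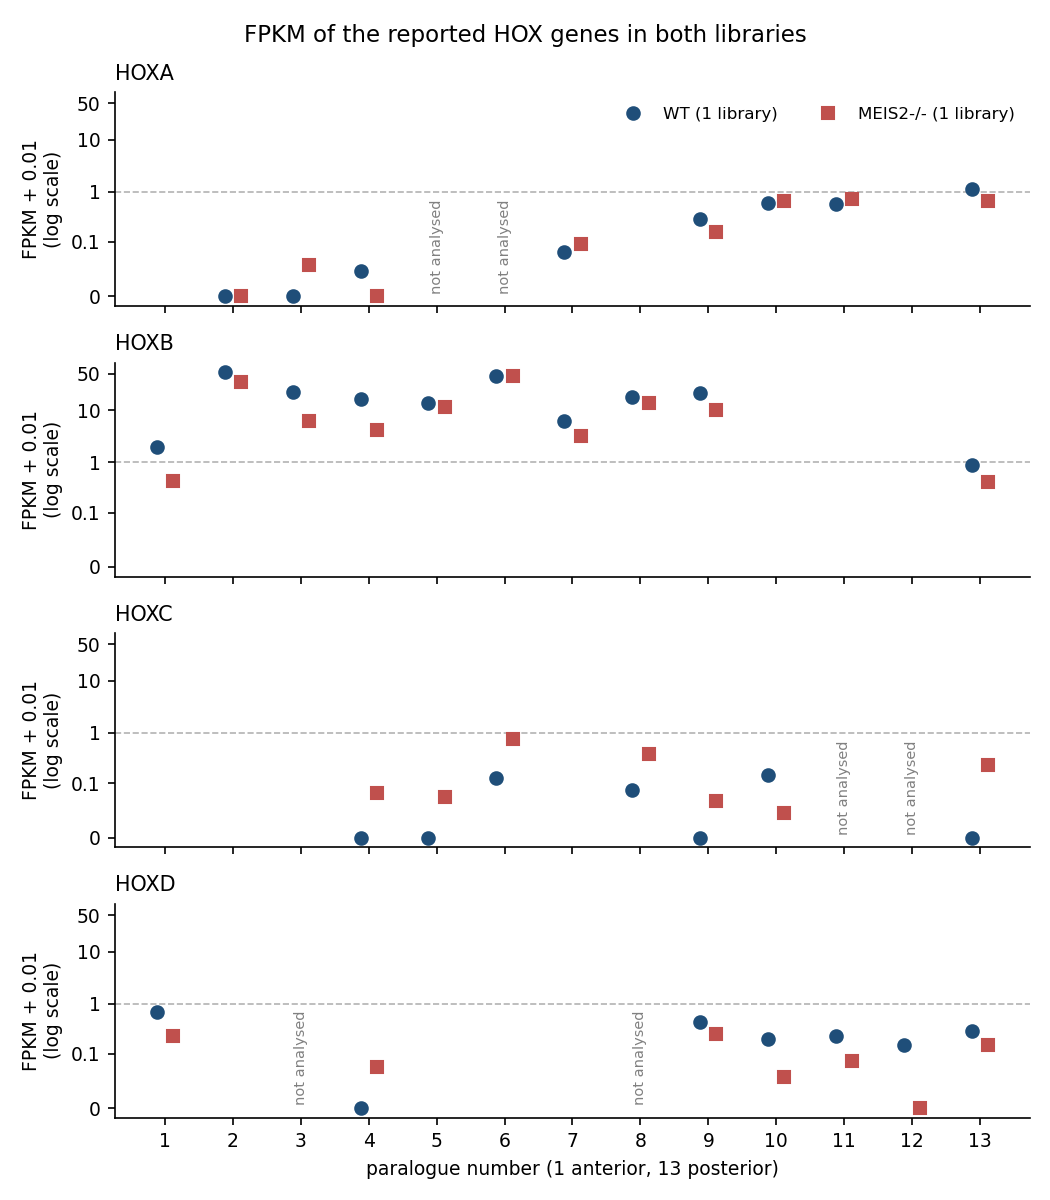
FPKM of the HOX genes reported (vertical axis, 0.01 added, log scale) by paralogue number (horizontal axis), with 1 panel per cluster, 1 symbol per library and genes not analysed marked so. The dashed line marks 1 FPKM, which HOXB1 to HOXB9 and HOXA13 reached in WT cells.

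All 10 compared HOX genes had lower FPKM in MEIS2-/- cells, against 40.6% of all compared genes. HOXB1 and HOXA13 reached 1 FPKM in WT cells only, so the filter had fixed their direction. The other 8 had at least 1 FPKM in both libraries and were all lower, as were 39.7% of the 12025 genes at that level. Of the 10, 4 fell by at least 2-fold, namely HOXB1, HOXB3, HOXB4 and HOXB9, while 7.97% of all compared genes fell by as much. Of the 8 with at least 1 FPKM in both libraries, 3 fell by at least 2-fold, beside 5.80% of the 12025 genes. None of the 10 rose by 2-fold, and 7.84% of all compared genes did. The median log2 fold change was −0.78 for the 10 HOX genes and −0.90 for the 9 HOXB genes. These counts describe neighbouring genes in 1 pair of libraries, and HOXB genes are not independent replicates of each other. The differences were uneven, with log2 fold changes from −1.97 (HOXB4) to −0.01 (HOXB6). HOXB1 to HOXB9 were then grouped by whether they passed 2-fold, so which group kept less was set in advance. HOXB1, HOXB3, HOXB4 and HOXB9 together kept 32.9% of their WT FPKM, from 62.81 to 20.67 FPKM. HOXB2, HOXB5, HOXB6, HOXB7 and HOXB8 together kept 79.2%, from 137.39 to 108.81 FPKM. The HOXB sum differed by 71.18 FPKM between the libraries. HOXB2, HOXB3, HOXB4 and HOXB9, picked as the 4 with the largest differences, held 83.8% of it.

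**Figure D2:**
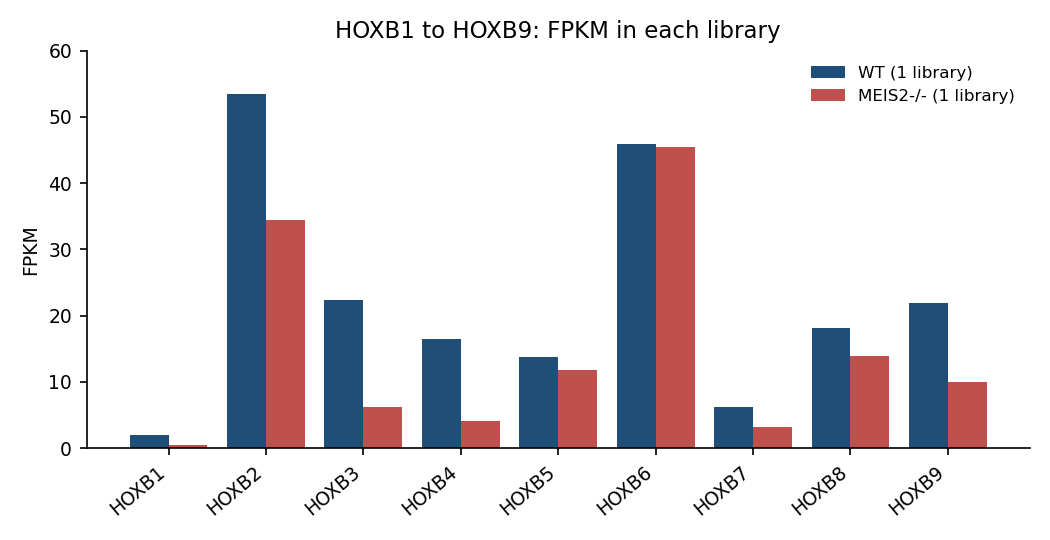
Bars give the FPKM of HOXB1 to HOXB9 in each library, without error bars since each genotype has 1 library. HOXB6 stood at 45.90 and 45.44 FPKM, while HOXB3 and HOXB4 kept 27.4% and 25.1% of their WT values.

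HOXB1, the most anterior gene of the cluster and a factor of hindbrain patterning, was low, at 1.96 FPKM in WT and 0.44 FPKM in MEIS2-/- cells. Its log2 fold change was −1.93. HOXB1 is known as a gene whose own promoter region holds sites for PBX and HOX proteins, so its sequence is shown here. The 250 bases before its start, from RefSeq on the minus strand of GRCh38.p14 at chr17:48531012-48531261, are printed with the match to the PBX and HOX motif TGATNNAT in capitals.
HOXB1: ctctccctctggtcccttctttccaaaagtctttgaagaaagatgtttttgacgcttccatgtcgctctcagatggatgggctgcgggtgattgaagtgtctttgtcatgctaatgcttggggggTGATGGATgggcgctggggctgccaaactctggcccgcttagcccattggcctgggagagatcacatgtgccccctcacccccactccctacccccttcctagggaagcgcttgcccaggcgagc
The match lies at positions −125 to −118 from the start. Searched on both strands, TGATNNAT was found in 6.48% of 35093 promoter windows of this length, among them those of HOXA2, HOXB1 and HOXD11 out of 20 HOX genes matched in the promoter table. The MEIS motif TGACAG was found in 13% of all windows and in those of HOXA2 and HOXA4, and its letters are not in the HOXB1 window. The matches of both motifs did not overlap in the HOX windows. HOXA13, the other compared gene with a promoter in that table, held neither. A match is a run of letters and was not tested for binding.

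HOXB2, which acts with HOXB1 in the hindbrain, was the highest HOX gene in WT cells, above 91.7% of all genes. It was at 53.54 FPKM in WT and 34.49 FPKM in MEIS2-/- cells, with a log2 fold change of −0.63 that did not reach 2-fold. HOXB3 lies next to it and stood at 22.40 and 6.13 FPKM. Its log2 fold change was −1.85, and 2.34% of all compared genes had a lower one. Antisense RNAs of the HOXB cluster overlap 374 exon bases of HOXB3, 305 of HOXB6, 87 of HOXB2 and 73 of HOXB5 in the GENCODE 29 annotation. Whether reads were counted by strand is not given in the sources used here, so sense and antisense reads could not be told apart there. HOXB4, known for its ability to expand hematopoietic progenitors when overexpressed, was at 16.52 FPKM in WT and 4.15 FPKM in MEIS2-/- cells. Its log2 fold change was −1.97, and 1.96% of all compared genes had a lower one. Without the pseudocount HOXB4 kept 25.1% of its WT value and HOXB1 22.5%, so which of these genes fell most depends on the pseudocount. HOXB3 and HOXB4 together gave 19.4% of the HOXB sum in WT and 7.91% in MEIS2-/- cells. The exons of the HOXB3 and HOXB4 transcripts named in the tables share 0 bases, and HOXB4 exons share none with the antisense RNAs.

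HOXB5 to HOXB8 are the other central genes. They were grouped without HOXB4 after the values were seen, so a larger kept share than in HOXB3 and HOXB4 was set in advance. HOXB5, which marks long-term hematopoietic stem cells in mouse, was at 13.72 FPKM in WT and 11.78 FPKM in MEIS2-/- cells, with a log2 fold change of −0.22. HOXB6 was at 45.90 and 45.44 FPKM, a log2 fold change of −0.01, and it was the highest HOX gene in MEIS2-/- cells. HOXB7 was at 6.16 and 3.25 FPKM, a log2 fold change of −0.90. HOXB8, which can immortalize myeloid progenitors when overexpressed, was at 18.07 and 13.85 FPKM, a log2 fold change of −0.38. None of these 4 genes reached 2-fold, and together they kept 88.6% of their WT FPKM. That share was weighted by HOXB6, which gave 45.90 of their 83.85 FPKM in WT cells. HOXB7 alone kept 52.8% and lay near the 2-fold limit. HOXB6 and HOXB2 made up 49.5% of the HOXB sum in WT and 61.5% in MEIS2-/- cells, with HOXB6 alone at 22.8% and 35.0%.

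HOXB9, a gene of thoracic patterning, was at 21.93 FPKM in WT and 9.95 FPKM in MEIS2-/- cells, with a log2 fold change of −1.13. HOXB13, which lies far from the rest of the cluster and is known from the tail bud and prostate, was at 0.87 and 0.41 FPKM and was not compared. HOXA13, the posterior HOXA gene, was at 1.11 and 0.67 FPKM, a log2 fold change of −0.65. By paralogue number, the median log2 fold change was −1.85 for the 3 compared anterior genes (paralogues 1 to 3), −0.38 for the 5 central genes (4 to 8) and −0.89 for the 2 posterior genes (9 to 13). The anterior median rests on 3 genes and was −1.04 with a pseudocount of 1 FPKM. HOXB1 in the anterior group and HOXA13 in the posterior group reached 1 FPKM in WT cells only, so the filter had fixed their direction. With a filter at 5 FPKM, which left both out, the anterior median was −1.24 and the posterior value −1.13, that of HOXB9 alone. The central group also held HOXB4, which fell. Along HOXB1 to HOXB9 the values had no single trend. HOXB2 changed less than HOXB1 and HOXB3, the smallest change was in HOXB6, and HOXB9 passed 2-fold.

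The 5 compared neighbours of the HOXB genes were lower too, as were 40.6% of all compared genes, and PRAC1 lay at the 2-fold limit. PRAC1 and PRAC2, which lie between HOXB9 and HOXB13, had log2 fold changes of −0.97 and −0.71. PRAC1 was at 2.77 FPKM in WT and 1.37 FPKM in MEIS2-/- cells, and PRAC2 at 2.87 and 1.72 FPKM. PRAC1 passed 2-fold with a pseudocount of 0.01 FPKM (−1.01) and with the libraries rescaled to a median log2 ratio of 0 (−1.07) or by a trimmed mean of log ratios (−1.08). Beyond the ends of the cluster SKAP1 had −0.87, SNX11 −0.24 and CALCOCO2 −0.54. SKAP1 was at 1.03 and 0.52 FPKM and reached 1 FPKM in WT cells only, so the filter had fixed its direction. Over the 15 compared neighbours of all 4 clusters the median log2 fold change was −0.12, with 10 lower and 5 higher. At the pseudocount of 0.1 FPKM, 0 were past 2-fold, while 7.97% of all compared genes fell and 7.84% rose by as much. EVX1, a homeobox gene beside the HOXA cluster, was at 16.06 and 21.27 FPKM, well above any HOXA gene.

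The HOXA, HOXC and HOXD genes are given as values only, since they lay under 1 FPKM apart from HOXA13. HOXA9 was at 0.29 FPKM in WT and 0.16 FPKM in MEIS2-/- cells, HOXA10 at 0.60 and 0.66 FPKM and HOXA11 at 0.59 and 0.73 FPKM. HOXA3, known to hold back the step from endothelium to blood, was listed at 0 in WT cells and at 0.03 FPKM in MEIS2-/- cells, and HOXA2 was listed at 0 in both. HOXA4 was at 0.02 and 0 FPKM, and HOXA7 at 0.06 and 0.09 FPKM. HOXA10, HOXA11 and HOXA13 thus had the highest values of this cluster in both libraries. HOXB13 was the lowest HOXB gene in both, but in MEIS2-/- cells it was at 0.41 FPKM beside 0.44 FPKM for HOXB1. At these levels such ranks cannot be separated from counting error.

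The 7 HOXC genes summed to 0.35 FPKM in WT and 1.55 FPKM in MEIS2-/- cells, and 6 of them had the higher value in MEIS2-/- cells. HOXC6, a thoracic gene, was at 0.13 and 0.75 FPKM. HOXC8 was at 0.07 and 0.39 FPKM. HOXC4, HOXC5, HOXC9 and HOXC13 were listed at 0 in WT cells and at 0.06, 0.05, 0.04 and 0.24 FPKM in MEIS2-/- cells. Over all 17397 genes, 832 were at 0 in WT and 614 in MEIS2-/- cells, so zeros were more frequent in WT generally. HOXC10 went the other way, from 0.15 to 0.02 FPKM. HOXC4 and HOXC6 share 484 exon bases, so their reads may have been split. The 7 HOXD genes summed to 1.99 FPKM in WT and 0.78 FPKM in MEIS2-/- cells, and 6 of them had the lower value in MEIS2-/- cells. HOXD1 was at 0.68 and 0.23 FPKM. HOXD9 to HOXD13, which pattern the limb, ranged from 0.15 to 0.44 FPKM in WT cells and from 0 to 0.25 FPKM in MEIS2-/- cells. HOXD4 was listed at 0 and at 0.05 FPKM. At these levels the number of fragments behind a value is unknown, and a difference between the libraries cannot be separated from counting error. The share of all genes under 1 FPKM that was higher or lower was not computed. The HOXC and HOXD counts of direction therefore have no background and are not read as a trait of either cluster.

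**Figure D3:**
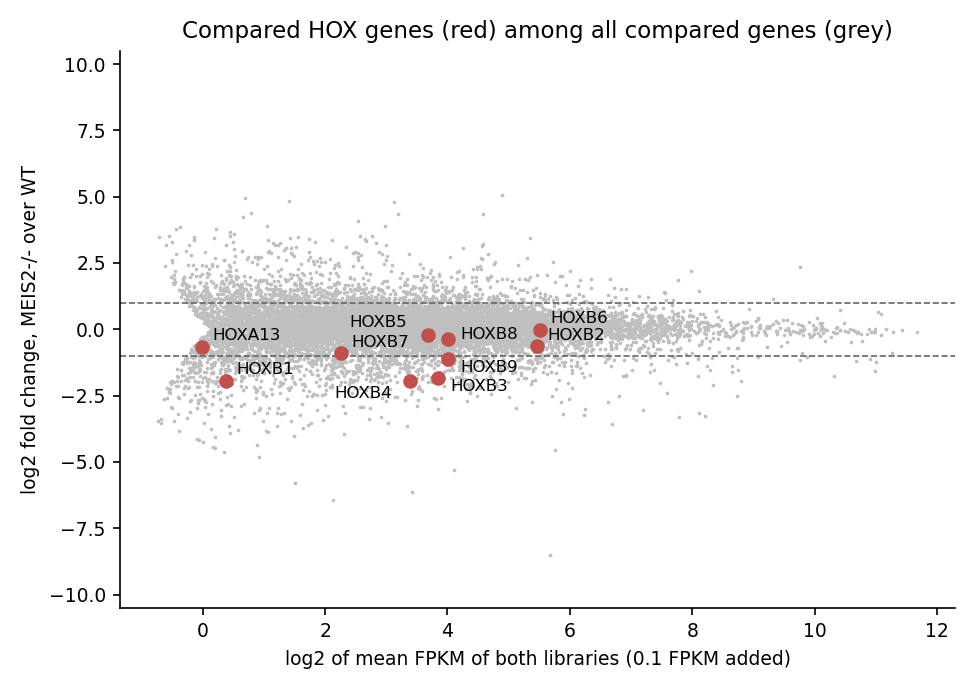
Each grey point is 1 of the 13075 compared genes, with log2 of the mean FPKM of both libraries (0.1 FPKM added) on the horizontal axis and the log2 fold change of MEIS2-/- over WT on the vertical axis. The 10 compared HOX genes (red) all lie below 0, and 4 of them lie below the lower dashed line, which marks 2-fold. For HOXB1 and HOXA13 the filter had fixed the direction.

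Of 8 HOX partner genes other than MEIS2, 6 were lower and 2 higher in MEIS2-/- cells, while 40.6% of all compared genes were lower. Either rescaling gave 7 lower and 1 higher, but it also lowered the median of all compared genes, to 0.006 or −0.0006, so that 40.6% does not apply there. PBX2 was at 72.89 FPKM in WT and 73.29 FPKM in MEIS2-/- cells. By at least 2-fold, 2 of the 8 fell and 0 rose, beside 7.97% and 7.84% of all compared genes, shares that also apply to the lists that follow. MEIS3 fell from 85.99 to 33.09 FPKM and PKNOX2 from 4.71 to 1.99 FPKM, while MEIS1 was at 4.97 and 3.41 FPKM. The median over the 8 was −0.37.

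CDX genes, homeobox genes known to switch on central and posterior HOX genes, were higher in MEIS2-/- cells where compared. CDX2 rose from 4.83 FPKM in WT to 21.24 FPKM in MEIS2-/- cells, with a log2 fold change of 2.11. CDX1 rose from 0.99 to 12.44 FPKM, a log2 fold change of 3.52. It reached 1 FPKM in MEIS2-/- cells only, so the filter had fixed its direction. CDX4 was at 0.26 and 0.25 FPKM and was not compared. CDX2 is also a gene of trophectoderm, and which cells made this mRNA was not tested.

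Retinoic acid induces anterior HOX genes through RAR and RXR receptors and is broken down by CYP26 enzymes. The list of 13 genes held enzymes and receptors of this pathway and also GDF11, which is neither. Of the 13, 11 were compared, 2 fell and 2 rose by at least 2-fold. Their median was −0.28, which is the value of GDF11 itself. The receptor RARA fell from 14.96 to 7.42 FPKM, just past 2-fold, and CYP26B1 fell from 1 to 0.14 FPKM. RARG stayed just short of 2-fold, at 23.84 FPKM in WT and 12.1 FPKM in MEIS2-/- cells (−0.97). The receptor RXRA was higher in MEIS2-/- cells, at 16.1 and 20.11 FPKM. CYP26C1 rose from 0.45 to 4.51 FPKM and ALDH1A1, a retinaldehyde dehydrogenase, from 0.56 to 6.35 FPKM. CYP26B1, CYP26C1 and ALDH1A1 each reached 1 FPKM in 1 library only, and 7 of the 11 genes did not pass 2-fold. ALDH1A2, the main source of retinoic acid in the early embryo, was at 0.32 and 0.18 FPKM.

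Polycomb proteins keep HOX clusters silent, and trithorax proteins keep them active. All 21 Polycomb genes were compared, 1 fell by at least 2-fold and 0 rose, and their median was −0.03. PHF1 was the gene that fell, from 55.87 to 25.01 FPKM. EZH2, the main H3K27 methyltransferase, was at 12.44 and 15.05 FPKM. Of the 12 trithorax and H3K27 demethylase genes, 1 fell and 0 rose, a share close to that of all genes, with a median of 0.30. That gene was KDM6B, an H3K27 demethylase, which fell from 35.96 to 17.26 FPKM. KMT2A, the trithorax gene best known for sustaining HOX expression, was at 3.91 and 3.71 FPKM.

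**Figure D4:**
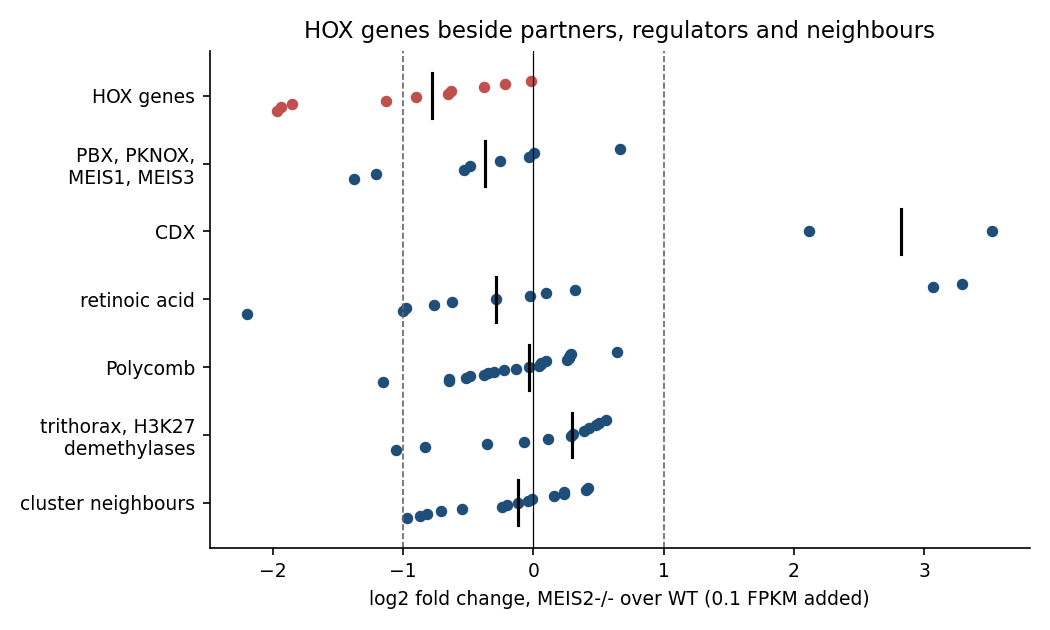
Each point is the log2 fold change of MEIS2-/- over WT of 1 compared gene, by gene list, with the list's median as a black bar and 2-fold as dashed lines. The 10 HOX genes lie below 0, the 2 compared CDX genes lie above 2-fold, and the Polycomb genes centre near 0. HOXB1 and HOXA13 reached 1 FPKM in WT cells only and CDX1 in MEIS2-/- cells only, so the filter had fixed their direction.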

How the data were processed

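RNA-Seq was compared between 1 WT and 1 MEIS2-/- library. The authors deposited FPKM values per gene, rounded to 2 decimals. Their processing notes name BWA, Bowtie and RSEM and the build hg19, with no versions or roles. Whole reads could not be recovered from the low values (agreement 0.095 in WT cells and 0.108 in MEIS2-/- cells, where 1 is complete), so depth is unknown and no counting interval is given.

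NCBI Gene numbers were matched to symbols through RefSeq for 17365 of 17397 genes. Exon overlaps came from GENCODE 29 and promoters from RefSeq, both on GRCh38, and no coordinates were carried to hg19. Noncoding HOX genes were not analysed here, and single values of a few items are not reported here. Log2 fold changes used a pseudocount of 0.1 FPKM and a minimum of 1 FPKM in at least 1 library, as deposited, without rescaling. No test was run. Named genes were, with that exception, drawn from all HOX genes, HOX partners, CDX, retinoic acid, Polycomb and trithorax lists, the nearest neighbours of each cluster and cell type markers. The HOX clusters as members, the other lists and the motifs were chosen with earlier results of these data known. The computation was tested on simulated data. Alternatives, run for neighbours and lists only after the data had been seen, were pseudocounts of 1 and 0.01, no filter, a filter at 5 FPKM, a 1.5-fold threshold, a median log2 ratio of 0 over genes with 5 FPKM or more in each library, and a trimmed mean of log ratios (TMM, 30% of ratios and 5% of levels trimmed per side). Python 3.11.15, numpy 2.4.6, pandas 2.3.3 and matplotlib 3.10.9 were used.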

Additional observations from a re-analysis of the deposited data

How the results depend on the processing

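The same 4 HOX genes, HOXB1, HOXB3, HOXB4 and HOXB9, stayed past 2-fold under both other pseudocounts and both rescalings, and the filter at 5 FPKM left out HOXB1, giving 3 lower genes. The share of all genes at least 2-fold lower was 5.3% and 8.27% with pseudocounts of 1 and 0.01 FPKM. It was 6.41% at the filter of 5 FPKM and rose to 9.2% with either rescaling. Both rescalings lowered log2 fold changes by about 0.12, and by less for the low genes HOXB1 and HOXA13, and added HOXB7, with −1.01 (median) and −1.02 (TMM), and moved the HOXB median to the same −1.01 and −1.02, since HOXB7 is the middle gene. The posterior median became −1.005 with TMM and −1.13 at 5 FPKM, where HOXB9 alone was left. A 1.5-fold threshold gave 7 lower and 0 higher genes, against 14.5% and 18.0% of all genes. Without a filter there were 8 lower and 3 higher HOX genes of 33, against 8.71% and 9.01% of all genes, so the higher share was near the background. Without a filter the median was 0.00 for HOXA and −0.63 for anterior paralogues, and that of central paralogues reversed to 0.12, because genes near 0 FPKM entered. The anterior median was also −1.04 at a pseudocount of 1 FPKM and −1.24 at 5 FPKM. HOXB1 ranged from −2.13 to −1.04 with the pseudocount. Chosen after seeing the data, a filter on the mean of both libraries kept 4 lower genes of 9, beside 7.18% of all genes that passed it. Of the neighbours, 1 (PRAC1) was lower by 2-fold at a pseudocount of 0.01 FPKM and with either rescaling, and 4 by 1.5-fold. Rescaling took the retinoic acid genes from 2 lower to 3, and a pseudocount of 1 FPKM took them to 0 and the HOX partners from 2 to 1. No HOXC or HOXD gene passed the minimum, so no median is given for them. Depth and replicate spread are unknown, so no error can be set against any of these values.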
